A study of Mus musculus with 8 samples.

Results

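The entry into S phase was followed through 10 genes of G1 and the G1/S step in mouse liver: the D cyclins Ccnd1, Ccnd2 and Ccnd3, the E cyclins Ccne1 and Ccne2, the kinases Cdk2 and Cdk4, the pocket protein gene Rb1, the transcription factor gene E2f1, and Mybl1, a MYB family transcription factor gene. They were taken by gene symbol from the 24062 gene entries of the count tables, and all 10 were among the 13767 entries with enough counts to test. The 8 libraries were made from ribosomal RNA-depleted total RNA of livers of lean C57BL/6 mice, with 2 libraries in each of 4 groups. Every mouse had been given 0.1 OD of adenovirus 1 week before it was killed, and had been without food for the last 6 h. The lacZ1 group (3 months old, wild type) was the control for shDnajb9, mice of 3 months with knockdown of Dnajb9, which encodes a co-chaperone of the endoplasmic reticulum. The lacZ2 group (4 months old, wild type) was the control for shRictor, mice of 4 months with knockdown of Rictor, which encodes a defining subunit of mTOR complex 2. The labels do not say what the control virus expressed, which cells took up virus, or whether both libraries of a group are from different animals, so p-values measure only the spread between these samples, which may be technical.

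In G1, mitogens raise D-type cyclins, which bind Cdk4 and its relative Cdk6. These kinases phosphorylate the retinoblastoma protein, encoded by Rb1, and thereby release E2F transcription factors. E2F proteins then raise cyclin E, which with Cdk2 completes the phosphorylation and starts DNA replication. In adult liver most hepatocytes are quiescent, and they can re-enter the cycle after loss of tissue, with cyclin D1 as a well-known early step.

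RefSeq promoter sequences (build GRCm38.p6, 250 bases before to 50 after the start site) were matched for 5 of the 10 genes. They are shown for Ccne1, at chr7:38107441-38107740 on the minus strand, as the gene with the largest fall among the 5 D and E cyclins, and for Cdk2, at chr10:128705002-128705301 on the minus strand, as the other member of the cyclin E kinase. Capitals mark a match to an E2F motif.

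Ccne1: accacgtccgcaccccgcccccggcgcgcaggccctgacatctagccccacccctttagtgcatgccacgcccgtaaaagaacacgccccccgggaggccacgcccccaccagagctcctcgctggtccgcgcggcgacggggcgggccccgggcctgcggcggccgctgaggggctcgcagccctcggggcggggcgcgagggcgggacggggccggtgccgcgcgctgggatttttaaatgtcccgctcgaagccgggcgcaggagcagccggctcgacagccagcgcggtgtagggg

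Cdk2: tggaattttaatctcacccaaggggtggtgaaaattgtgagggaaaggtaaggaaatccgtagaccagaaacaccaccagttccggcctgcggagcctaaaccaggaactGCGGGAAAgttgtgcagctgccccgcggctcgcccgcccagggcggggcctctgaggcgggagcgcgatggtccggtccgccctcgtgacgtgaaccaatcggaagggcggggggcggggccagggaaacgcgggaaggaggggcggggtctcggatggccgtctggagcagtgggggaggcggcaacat

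Both strands were searched for the E2F motifs TTTCCCGC, TTTGGCGC, TTTCGCGC and TTTGCCGC and for the cell cycle homology element TTTGAA. The Cdk2 window held TTTCCCGC on the opposite strand, starting at -140 from the start site. No other window of the 6 matched for Ccnd3, Ccne1, Cdk2, Cdk4 and E2f1 held an E2F motif, and none held TTTGAA. The E2f1 window, at chr2:154569377-154569676 on the minus strand, lies inside the gene as GENCODE M21 places it. The gene begins there at 154569892, and the bases before that point were not searched. Of all 32851 windows in the table, 2.3% held an E2F motif and 17.9% held TTTGAA. For comparison, an E2F motif was found in 10 of 26 windows of a list of E2F target genes, and TTTGAA in 13 of 17 windows of a list of G2 and mitosis genes. A match describes letters only, and its absence from these windows bears on no factor.

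Gene counts came to between 6426164 and 11383532 per library. Reads without a unique alignment were 26.7% to 42.0% of all HTSeq counts in the hairpin libraries against 22.9% to 24.9% in the lacZ libraries, and library factors of the trimmed mean of M values (TMM) were 0.743 to 0.918 against 1.07 to 1.28. These values split in the same way as the treatments, and their part in the results was not tested. The libraries shDnajb9 replicate 1 and lacZ2 replicate 1 stood apart by their share of the RNA gene Rpph1, at 4.70% and 4.26% of gene counts. Dnajb9 itself was at 30.6 and 38.0 CPM (counts scaled by library size, TMM-normalised) in lacZ1 and 22.0 and 20.3 in shDnajb9, with a log2 fold change of -0.70 and an edgeR adjusted p of 0.056. Rictor was at 52.3 and 65.2 CPM in lacZ2 and 40.1 and 42.0 in shRictor, with a log2 fold change of -0.52 and an edgeR adjusted p of 0.231. Both targets were lower in both libraries of their hairpin and neither passed the threshold, so "knockdown" names the hairpin that was given. Rictor was also lower in both shDnajb9 libraries, at 33.3 and 63.4 CPM against 65.4 and 68.8 in lacZ1. Its log2 fold change there was -0.46 (edgeR adjusted p = 0.239), with shDnajb9 replicate 2 close to lacZ1. Whether a lower level of Rictor was particular to shRictor was thus not resolved. Dnajb9 had a log2 fold change of 0.41 in shRictor (edgeR adjusted p = 0.271). Hepatocyte markers such as albumin were abundant in all 8 libraries, with a sum of 26140 to 74730 CPM. Of all genes tested, 11.6% were called higher in shDnajb9 and 7.31% in shRictor. Of 7 hepatocyte markers tested, 2 were called higher in shDnajb9 (Ttr by 1.73 and Apoa1 by 2.10), with 0 lower. In shRictor 1 marker was called higher (Apoa1 by 1.66), near the share there, with 0 lower. Leaving out 1 library at a time gave 0 higher in both contrasts, apart from 3 without shDnajb9 replicate 2 and 2 without lacZ2 replicate 2.

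In both hairpin groups the cyclin E gene Ccne1 and Mybl1 fell steeply, and Cdk2 fell by less. Ccnd1 and Ccne2 fell in shRictor and Rb1 fell in shDnajb9, whereas Ccnd2, Ccnd3, Cdk4 and E2f1 passed the test in neither. The threshold for a call was an adjusted p under 0.05 (Benjamini-Hochberg, over all 13767 genes) in the quasi-likelihood test of edgeR. In shDnajb9 against lacZ1, 4 of the 10 genes were called lower and 0 higher, where 12.6% of all genes tested were called lower and 11.6% higher. In shRictor against lacZ2, 5 of the 10 were called lower and 0 higher, where 10.9% of all genes were called lower and 7.31% higher. The median log2 fold change of the 10 genes was -0.55 in shDnajb9 and -0.89 in shRictor, against -0.05 and -0.02 over all genes tested. Both hairpin libraries lay below both control libraries for 6 of the 10 genes in shDnajb9, against 35.1% of all genes, and for 8 of the 10 in shRictor, against 31.6%. The control groups of the contrasts are separate, but within each contrast the presence of a hairpin and its target cannot be told apart.

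**Figure D1:**
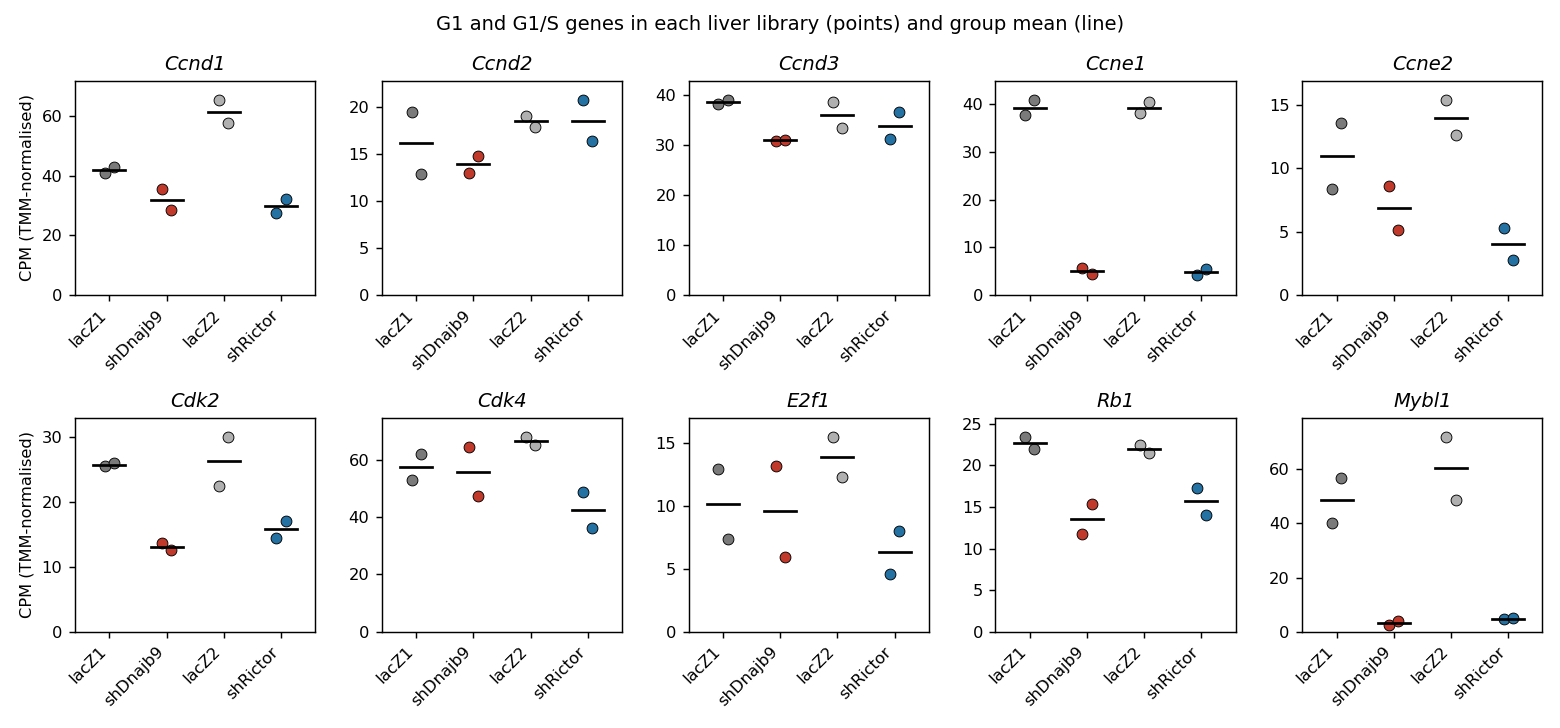
TMM-normalised CPM of each of the 10 genes (vertical axes, each from 0) in the 2 libraries (points) of each group, with the group mean as a line. Ccne1 and Mybl1 lie far below both controls in both hairpin groups, at 4.12 to 5.66 and 2.52 to 4.99 CPM, while Ccnd2 overlaps its controls in both.

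Ccnd1 (chromosome 7, 144929931 to 144939925, minus strand) encodes cyclin D1. It was at 40.9 and 42.9 CPM in lacZ1 against 35.4 and 28.3 in shDnajb9, and 65.1 and 57.6 in lacZ2 against 27.6 and 32.3 in shRictor. The hairpin libraries were below their own controls in both contrasts, and the lacZ2 libraries were the highest of the 8. In shRictor it fell by 1.03 on the log2 scale (SE 0.226, edgeR adjusted p = 0.00762), a 2.05-fold lower level. In shDnajb9 its log2 fold change was -0.40 (SE 0.229, edgeR adjusted p = 0.212). The difference between the contrasts, -0.63, had an edgeR adjusted p of 0.488. The controls themselves differed by 0.55 on the log2 scale, lacZ2 above lacZ1 with no overlap, with an unadjusted edgeR p of 0.0294 and an adjusted p of 0.9999. The age of the mice and the control set cannot be told apart in that difference. The Ccnd1 call in shRictor was lost without lacZ2 replicate 1 (log2 fold change -0.94, edgeR adjusted p = 0.0604) and without shRictor replicate 1 (-0.92, 0.0827). Exons of Oraov1, on the other strand, cover 23.4% of its exon bases, and Oraov1 had 0.179 to 0.367 times its counts.

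Ccnd2 encodes cyclin D2, the D cyclin with the lowest level per exon length in all 4 groups. Its libraries were at 19.5 and 12.9 CPM in lacZ1 against 13.0 and 14.8 in shDnajb9, and 19.1 and 17.9 in lacZ2 against 20.7 and 16.4 in shRictor. The groups overlapped in both contrasts, with log2 fold changes of -0.22 (edgeR adjusted p = 0.569) and 0.00 (0.994). Ccnd3, the gene of cyclin D3, was at 38.2 and 38.9 CPM in lacZ1 against 30.8 and 30.9 in shDnajb9, and 38.6 and 33.4 in lacZ2 against 31.1 and 36.6 in shRictor. The shDnajb9 libraries lay below lacZ1 and those of shRictor overlapped lacZ2. Its log2 fold change was -0.32 in shDnajb9 (SE 0.222, edgeR adjusted p = 0.3002) and -0.09 in shRictor (SE 0.219, adjusted p = 0.830). With offsets for transcript length and GC content, an alternative chosen after seeing the data, the value in shDnajb9 turned to 0.40 (edgeR adjusted p = 0.240).

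Exon length is that of all annotated exons of a gene merged, whichever transcripts were in use. Per exon length, Ccnd1 made up 57.5% and 61.1% of D cyclin counts in lacZ1 and 60.6% and 54.1% in shDnajb9. The same share was 68.3% and 68.2% in lacZ2 and 50.5% and 53.7% in shRictor. It was thus lower in both shRictor libraries than in lacZ2, and overlapped between shDnajb9 and lacZ1. The summed D cyclin level was 94.7 to 98.6 CPM in lacZ1 and 74.1 to 79.2 in shDnajb9, and 109 to 123 CPM in lacZ2 and 79.4 to 85.3 in shRictor.

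Cdk4 encodes the kinase partner of the D cyclins. It was at 52.9 and 61.9 CPM in lacZ1 against 64.4 and 47.4 in shDnajb9, and 67.9 and 65.3 in lacZ2 against 48.9 and 36.2 in shRictor. The shDnajb9 libraries lay on both sides of lacZ1, with a log2 fold change of -0.04 (SE 0.246, edgeR adjusted p = 0.914). Those of shRictor were below lacZ2, with a log2 fold change of -0.65 (SE 0.245, edgeR adjusted p = 0.0870). Exons of Tspan31, on the other strand, cover 19.7% of the exon bases of Cdk4, and Tspan31 had 2.62 to 8.28 times its counts. Since the strand setting of the counting is not given in the sources used here, reads of the overlap cannot be told apart.

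Rb1 encodes the retinoblastoma protein, the main substrate of these kinases and the repressor of activating E2F factors. The libraries were at 23.4 and 21.9 CPM in lacZ1 against 11.7 and 15.3 in shDnajb9, and 22.5 and 21.5 in lacZ2 against 17.3 and 14.1 in shRictor. Hairpin libraries were below their controls in both contrasts. In shDnajb9 Rb1 fell by 0.73 on the log2 scale (SE 0.242, edgeR adjusted p = 0.0434), and in shRictor the value was -0.49 (SE 0.236, adjusted p = 0.179). The call in shDnajb9 was lost in 7 of 14 alternatives, with an adjusted p of up to 0.217, among them DESeq2 (0.0749) and the fits without lacZ1 replicate 1 (0.208), lacZ1 replicate 2 (0.106) or shDnajb9 replicate 1 (0.215). Exons on the other strand, of Rcbtb2 and Lpar6, cover 14.9% of its exon bases, and Rcbtb2 had 2.59 to 4.89 times its counts.

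E2f1 encodes the activating E2F factor that Rb1 restrains. It was at 12.9 and 7.39 CPM in lacZ1 against 13.2 and 5.94 in shDnajb9, and 15.5 and 12.3 in lacZ2 against 4.59 and 8.02 in shRictor. The lacZ1 and shDnajb9 libraries overlapped, with replicate 1 the higher in each, and the log2 fold change was -0.15 (SE 0.404, edgeR adjusted p = 0.808). Both shRictor libraries were below lacZ2, with a log2 fold change of -1.12 (SE 0.398, edgeR adjusted p = 0.0705). That value passed the threshold in 4 of 14 alternatives, namely by total count (edgeR adjusted p = 0.0227), with no filter (0.00181), in the 4 libraries compared (0.0181) and with length and GC offsets (0.0317). The ratio of E2f1 to Rb1 counts was 0.553 and 0.337 in lacZ1 against 1.13 and 0.388 in shDnajb9, and 0.689 and 0.571 in lacZ2 against 0.265 and 0.569 in shRictor, with wide overlap in the Dnajb9 contrast.

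**Figure D2:**
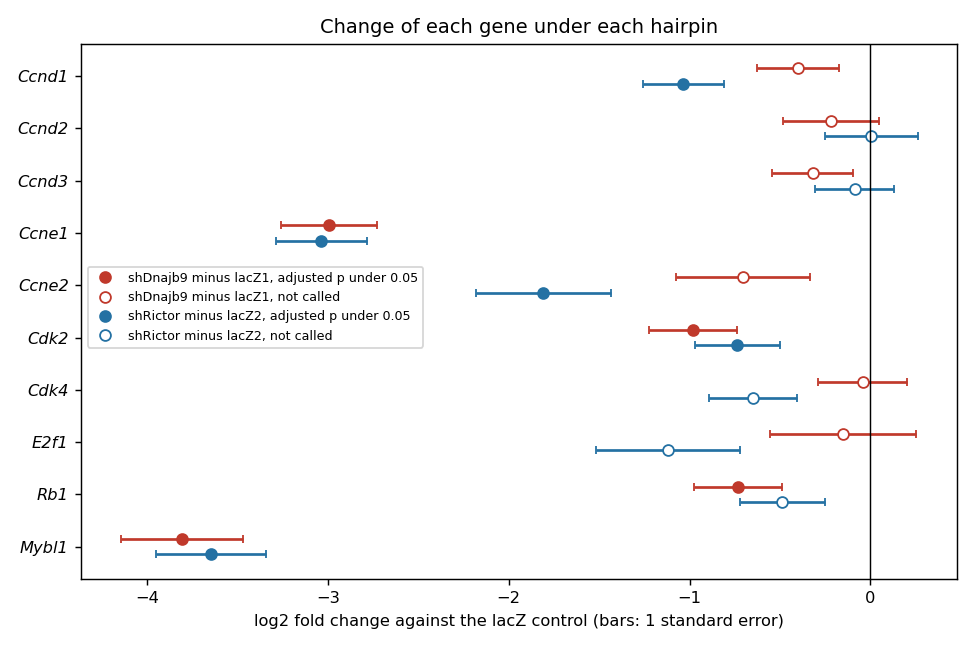
Log2 fold change of each gene against its own lacZ control (horizontal axis), with bars of 1 standard error, in shDnajb9 (red) and shRictor (blue). Filled points passed the adjusted p threshold; Ccne1 and Mybl1 are at -3.00 and -3.81 in shDnajb9 and at -3.04 and -3.65 in shRictor.

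Ccne1 encodes cyclin E1, an activator of Cdk2 and an E2F target. It was at 37.7 and 40.8 CPM in lacZ1 against 5.66 and 4.34 in shDnajb9, and 38.2 and 40.4 in lacZ2 against 4.12 and 5.38 in shRictor. All 4 hairpin libraries lay far below all 4 controls, which spanned a narrow range. Ccne1 fell by 3.00 on the log2 scale in shDnajb9 (SE 0.264, edgeR adjusted p = 3.81e-05) and fell by 3.04 in shRictor (SE 0.252, edgeR adjusted p = 4.84e-05). The level was 7.97-fold and 8.21-fold lower, and the unadjusted p ranked 16 and 6 among the 13767 genes. The contrasts differed by -0.04 (edgeR adjusted p = 0.976). Both calls held in each of 14 alternatives, with log2 fold changes from -3.42 to -2.79 in shDnajb9 and from -3.44 to -2.86 in shRictor. No annotated exon of another gene overlaps those of Ccne1 (GENCODE M21, chromosome 7, 38097984 to 38107534, minus strand).

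Ccne2, the gene of cyclin E2, was at 8.33 and 13.6 CPM in lacZ1 against 8.60 and 5.14 in shDnajb9, and 15.4 and 12.6 in lacZ2 against 5.30 and 2.74 in shRictor. The shRictor libraries were below lacZ2, and those of shDnajb9 overlapped lacZ1. It fell by 1.81 on the log2 scale in shRictor (SE 0.372, edgeR adjusted p = 0.00532), a 3.51-fold lower level, and had a log2 fold change of -0.71 in shDnajb9 (SE 0.370, edgeR adjusted p = 0.176). The difference of -1.10 between the contrasts had an unadjusted p of 0.0562 and an edgeR adjusted p of 0.467. Without shRictor replicate 2 the fall in shRictor was no longer called (log2 fold change -1.39, edgeR adjusted p = 0.0606). Exons of Ints8 on the other strand cover 17.4% of its exon bases, and Ints8 had 1.30 to 8.14 times its counts.

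Per exon length, Ccne1 made up 85.6% and 79.8% of E cyclin counts in lacZ1 and 46.4% and 52.6% in shDnajb9, and 76.5% and 80.8% in lacZ2 and 50.5% and 72.1% in shRictor. The share was lower in every hairpin library than in every control library. Against Ccnd3 in the same library, a ratio free of the library scaling, Ccne1 counts were 0.986 to 1.21 in the 4 controls and 0.133 to 0.184 in the 4 hairpin libraries.

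Cdk2 encodes the kinase that cyclin E activates. Its libraries were at 25.5 and 26.0 CPM in lacZ1 against 13.6 and 12.6 in shDnajb9, and 22.6 and 30.0 in lacZ2 against 14.5 and 17.1 in shRictor, with no overlap in either contrast. Cdk2 fell by 0.98 on the log2 scale in shDnajb9 (SE 0.244, edgeR adjusted p = 0.0132), a 1.97-fold lower level, and fell by 0.74 in shRictor (SE 0.236, edgeR adjusted p = 0.0467). Leaving out lacZ1 replicate 1 (edgeR adjusted p = 0.0705) or lacZ1 replicate 2 (0.0532) ended the call in shDnajb9. In shRictor the call was lost in 7 of 14 alternatives, among them each of the 4 fits without 1 library, with an adjusted p of up to 0.285.

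Mybl1 (chromosome 1, 9667415 to 9700209, minus strand, no exon overlap with another gene), also called A-Myb, encodes a transcription factor best known from male meiosis and related to B-Myb, a partner of the MuvB complex at mitotic genes. It was at 40.1 and 56.9 CPM in lacZ1 against 2.52 and 4.11 in shDnajb9, and 71.9 and 48.8 in lacZ2 against 4.59 and 4.99 in shRictor. All hairpin libraries lay far below all controls; the counts behind them were 452 and 477 in lacZ1 but 12 and 36 in shDnajb9, and 618 and 577 in lacZ2 but 39 and 51 in shRictor. Mybl1 fell by 3.81 on the log2 scale in shDnajb9 (SE 0.336, edgeR adjusted p = 3.81e-05), a 14.0-fold lower level, and fell by 3.65 in shRictor (SE 0.303, edgeR adjusted p = 4.84e-05), 12.5-fold lower. Its unadjusted p ranked 14 and 9 among all genes, and both calls held in each of 14 alternatives, from -4.26 to -3.54 and from -4.07 to -3.34. Mybl1 counts relative to Ccnd3 were 1.05 to 1.86 in the controls and 0.0816 to 0.148 in the hairpin libraries.

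**Figure D3:**
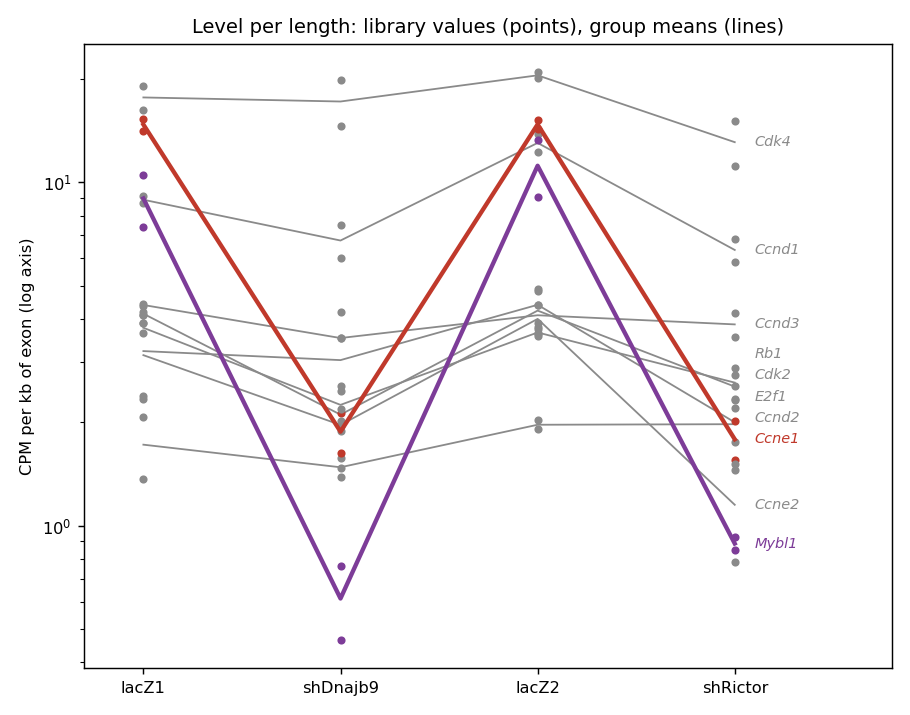
CPM per kb of exon (log axis) of each gene by group, with libraries as points and group means joined by lines. Ccne1 (red) and Mybl1 (purple) pass from the upper to the lower end of the order between lacZ and hairpin groups, while Cdk4 stays at the top.

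Levels of different genes were compared as CPM per kb of exon. The length was that of all annotated exons of a gene merged, from 2.66 kb for Ccne1 to 9.41 kb for Ccnd2. Which transcripts were in use was not tested, so the order holds for this length only. Cdk4 was highest in every group, with means of 17.7, 17.2, 20.5 and 13.1 CPM per kb in lacZ1, shDnajb9, lacZ2 and shRictor, and its libraries did not overlap those of the next gene. This rank includes any reads of Tspan31, which overlaps 19.7% of the exon bases of Cdk4. Ccne1 came next in both controls, at 14.7 and 14.8 CPM per kb. By its mean it was the eighth in both hairpin groups, at 1.88 and 1.78. Mybl1 overlapped Ccnd1 in both controls, at 8.97 and 11.2 CPM per kb, and was the last of the 10 in both hairpin groups, at 0.613 and 0.887. In shRictor its libraries overlapped those of Ccne2. Ccnd2 was the last in both controls, at 1.72 and 1.97 CPM per kb, clear of its neighbour. The middle of the order was not resolved: in lacZ2, neighbours among E2f1, Cdk2, Ccnd3, Ccne2 and Rb1 all overlapped. In shDnajb9 the same held from Ccnd3 through E2f1, Rb1, Cdk2 and Ccne2 to Ccne1. In shRictor it held from Rb1 through Cdk2, E2f1 and Ccnd2 to Ccne1.

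In the edgeR test of the difference between the contrasts, 0 of the 10 genes were called, where 0.00726% of all genes were called. None reached an unadjusted p under 0.05 there, the smallest being 0.0562, and DESeq2 and limma-voom also called 0. The standard errors of these differences were 0.312 to 0.567 on the log2 scale. Between the control groups 0 of the 10 genes were called by edgeR, DESeq2 or limma-voom, where edgeR called 0% of all genes, and Ccnd1 alone had an unadjusted p under 0.05.

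**Figure D4:**
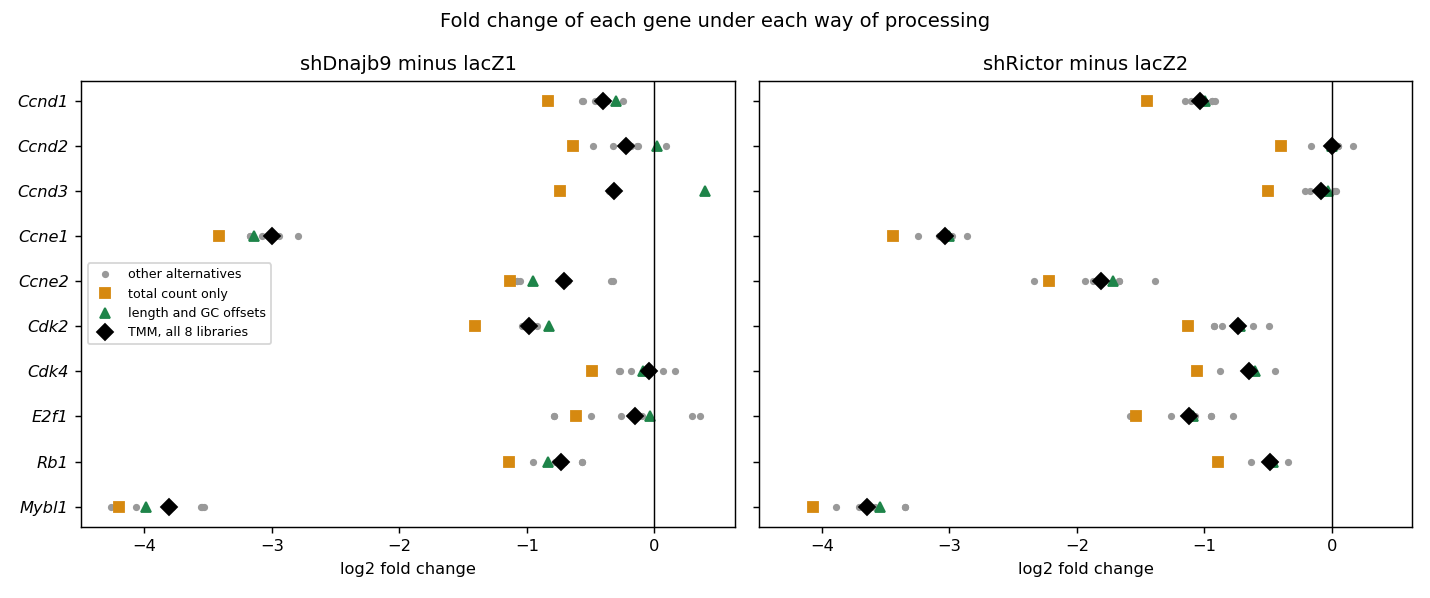
Log2 fold change of each gene (horizontal axis) under TMM scaling (diamond) and the alternatives, with total count scaling (square) and length and GC offsets (triangle) marked. Scaling by total count moves every gene lower; Ccne1 and Mybl1 lie between -4.26 and -2.79 in both contrasts in every case drawn.

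Scaling by total count alone moved the median of all genes to -0.46 in shDnajb9 and -0.42 in shRictor, and the 10 genes with it. On that scale 7 of the 10 were called lower in shDnajb9, with Ccnd1 (-0.84, edgeR adjusted p = 0.0223), Ccnd3 (-0.74, 0.0413) and Ccne2 (-1.13, 0.0457) added. In shRictor 8 were called lower, with Cdk4 (-1.05, 0.0104), E2f1 (-1.54, 0.0227) and Rb1 (-0.89, 0.0398) added. Of all genes called on that scale, 3354 were lower and 610 higher in shDnajb9, against 1728 and 1597 by TMM, and 2810 were lower and 436 higher in shRictor, against 1502 and 1006.

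The other genes of the pathway were read from 6 lists. Of 6 CDK inhibitors tested, 3 were called lower in shDnajb9 and 2 in shRictor, and 0 higher in either, beside 12.6% lower and 11.6% higher of all genes tested in shDnajb9 and 10.9% and 7.31% in shRictor. Total count or no filter on low counts gave 5 lower in shRictor. Without shDnajb9 replicate 2, 1 was lower and 1 higher in shDnajb9, the riser being Cdkn1b, the gene of p27 (0.96, edgeR adjusted p = 0.0204), named here after its values were seen. Cdkn1a, the gene of p21, was at 69.6 and 47.3 CPM in lacZ1 against 7.34 and 5.37 in shDnajb9, and at 111 and 61.3 in lacZ2 against 5.18 and 8.32 in shRictor. It fell in both, with log2 fold changes of -3.23 (SE 0.363, edgeR adjusted p = 0.000163) and -3.66 (SE 0.345, edgeR adjusted p = 0.000116). Cdkn1c, which encodes p57, fell in both (-1.77 and -2.85), a call lost in shDnajb9 without shDnajb9 replicate 2 (edgeR adjusted p = 0.0653). Cdkn2c, which encodes p18, fell in shDnajb9 (-0.95), and was at -0.80 in shRictor, which was not called. The call on Cdkn2c was lost without lacZ1 replicate 2, shDnajb9 replicate 1 or shDnajb9 replicate 2 (edgeR adjusted p = 0.210, 0.0617 and 0.114).

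Among other G1 kinases and factors of cyclin turnover, 2 of 14 were called lower and 1 higher in shDnajb9, and 3 lower and 1 higher in shRictor. These counts are near the shares of all genes called. Without lacZ1 replicate 1, 0 were called in shDnajb9, and without lacZ2 replicate 1, 1 lower and 1 higher in shRictor. Cdc25a, a phosphatase that activates Cdk2, fell in both (log2 fold changes of -1.18 and -2.11), as did Skp2, which targets Cdk inhibitors for degradation (-1.14 and -1.12). In shDnajb9 neither passed without lacZ1 replicate 1 (edgeR adjusted p = 0.0693 and 0.0663), nor did Cdc25a without shDnajb9 replicate 2 (0.0874). In shRictor Skp2 did not pass without lacZ2 replicate 1 or shRictor replicate 1 (edgeR adjusted p = 0.0526 and 0.0852). The F-box gene Fbxo4 rose by 0.98 in shDnajb9, a call lost by total count (0.53, edgeR adjusted p = 0.115) and without lacZ1 replicate 1, lacZ1 replicate 2 or shDnajb9 replicate 1 (0.130, 0.0591 and 0.118). Fbxo31, an F-box protein known to act on cyclin D1, rose by 1.92 in shRictor. It had a log2 fold change of 0.26 in shDnajb9, and the difference of 1.66 was not called (edgeR adjusted p = 0.226).

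For all genes tested, the shares called were 12.6% lower and 11.6% higher in shDnajb9, and 10.9% and 7.31% in shRictor. Of 18 pocket protein, E2F and DREAM genes, 5 were called lower and 1 higher in shDnajb9, and 6 lower and 1 higher in shRictor. Total count gave 9 lower and 0 higher in both contrasts. In shDnajb9, the number lower was 1 without lacZ1 replicate 1 and 3 without shDnajb9 replicate 1, and 0 were higher without any 1 library. In shRictor, 2 were lower without lacZ2 replicate 1 or shRictor replicate 1, and 4 without shRictor replicate 2. E2f7 (-2.91 and -1.78), E2f2 (-1.91 and -1.57), Myb (-2.39 and -3.10) and the pocket protein gene Rbl1 (-1.01 and -1.48) fell in shDnajb9 and shRictor. Without lacZ1 replicate 1, E2f7 kept its call in shDnajb9, and E2f2, Myb and Rbl1 did not (edgeR adjusted p = 0.0677, 0.0885 and 0.111). Myb also lost it without shDnajb9 replicate 1 (edgeR adjusted p = 0.0516) and Rbl1 without shDnajb9 replicate 2 (0.107). In shRictor, E2f7 and E2f2 did not pass without lacZ2 replicate 1 (edgeR adjusted p = 0.147 and 0.122) or shRictor replicate 1 (0.0979 and 0.107), while Myb and Rbl1 passed without either. Rbl2, which encodes the pocket protein p130 of quiescent cells, was the riser in both, by 0.71 and 1.02, and by total count it passed in neither (0.29, edgeR adjusted p = 0.361, and 0.62, 0.0820). The call in shDnajb9 was also lost with no filter, with only the 4 libraries compared and without any 1 of the 4 libraries (edgeR adjusted p from 0.0527 to 0.187), and the call in shRictor without lacZ2 replicate 1 (0.89, 0.0825).

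Most genes of the lists downstream of the G1/S step fell. Of all genes tested, 12.6% were called lower and 11.6% higher in shDnajb9, and 10.9% and 7.31% in shRictor. Of 27 E2F targets at G1/S, 23 were called lower in shDnajb9 and 22 in shRictor, with 0 higher and medians of -1.86 and -1.52. Fewer were called without any 1 library, with medians from -1.87 to -1.67 in shDnajb9 and from -1.84 to -1.33 in shRictor. The replication licensing genes Mcm2 (-2.30 and -1.65), Mcm5 (-2.09 and -2.13) and Cdt1 (-2.50 and -1.22) fell in shDnajb9 and shRictor, with Cdt1 in shRictor losing its call without lacZ2 replicate 1 or shRictor replicate 2 (edgeR adjusted p = 0.0578 and 0.0851). All 20 G2 and mitosis genes were called lower in both contrasts, with medians of -2.88 and -2.58. Leaving out 1 library gave medians from -3.09 to -2.59 in shDnajb9 and from -2.89 to -2.26 in shRictor. Foxm1 lost its call in shRictor without lacZ2 replicate 1 or shRictor replicate 1. Ccnb1, the gene of cyclin B1, fell in both (-4.02 and -3.52), as did Cdk1, its kinase (-2.82 and -2.71).

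Upstream genes were read beside 12.6% of all genes called lower and 11.6% higher in shDnajb9, and 10.9% and 7.31% in shRictor. Of 15 mitogen receptor, ligand and early genes, 4 were called lower and 1 higher in shDnajb9. In shRictor 2 were called lower and 2 higher, near the shares of all genes. Without 1 library, 1 or 2 were lower in shDnajb9 and 0 higher, apart from 1 without shDnajb9 replicate 2. In shRictor, 0 were lower without lacZ2 replicate 1 or either shRictor library, and 3 without lacZ2 replicate 2. Total count gave 4 lower in shRictor, and the stricter filter, DESeq2 and the 4 libraries compared gave 1. The receptor gene Egfr rose by 1.39 in shDnajb9 and 2.81 in shRictor. The first of these calls was lost by total count (0.99, edgeR adjusted p = 0.0771) and without any 1 of the 4 libraries (edgeR adjusted p from 0.0549 to 0.221). Erbb3 rose by 1.38 in shRictor, a call lost without lacZ2 replicate 1 or shRictor replicate 2 (edgeR adjusted p = 0.0745 and 0.0678). The early gene Jun fell in both (-1.18 and -1.10). In shDnajb9 it did not pass without lacZ1 replicate 1 or shDnajb9 replicate 1 (edgeR adjusted p = 0.174 and 0.0902). In shRictor it did not pass without lacZ2 replicate 1 (-0.58, edgeR adjusted p = 0.292), shRictor replicate 1 (0.139) or shRictor replicate 2 (0.0867). Egr1 fell by 2.82 in shDnajb9 and had a log2 fold change of -0.29 in shRictor. The difference between the contrasts, 2.53, was not called (edgeR adjusted p = 0.226).

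**Figure D5:**
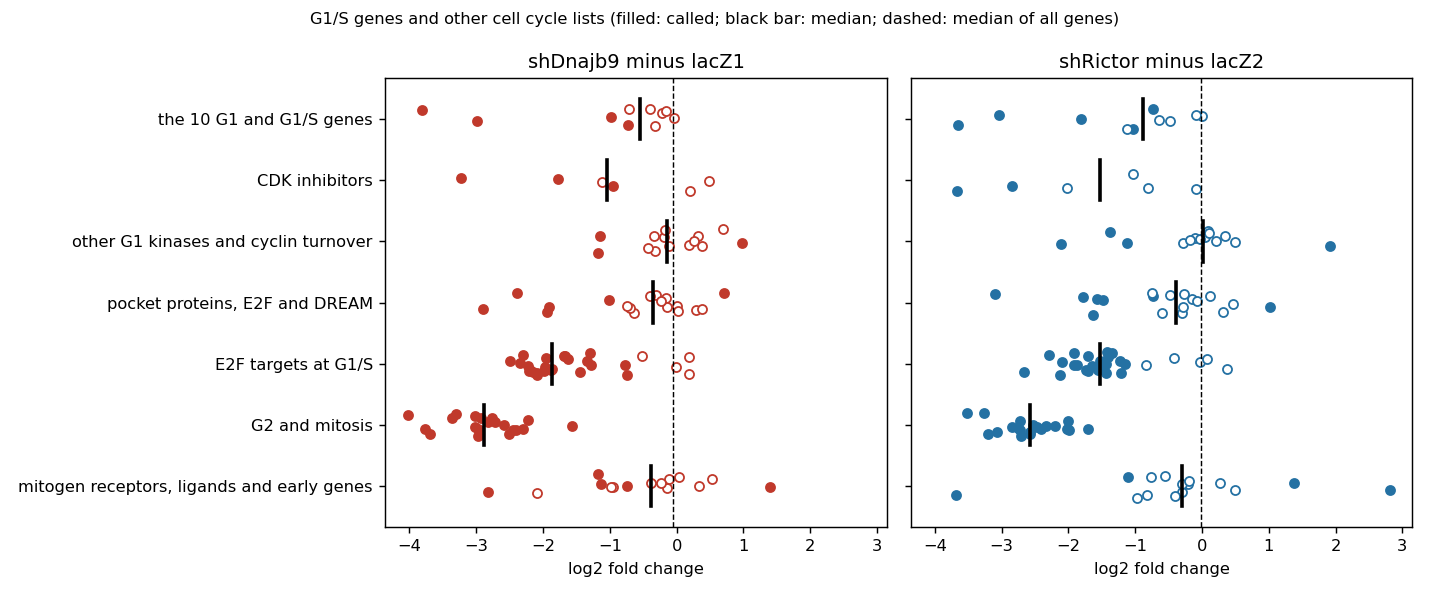
Log2 fold change (horizontal axis) of the 10 genes and of the members of each list in shDnajb9 (left) and shRictor (right). Filled points are called genes, black bars list medians and the dashed line the median of all genes; E2F targets and mitotic genes lie to the left, with medians of -1.86 and -2.88 in shDnajb9 and -1.52 and -2.58 in shRictor.

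Genes whose level followed a member across the 8 libraries were ranked by the root mean square difference of centred log2 CPM, over 11934 candidate genes. Nearest to Ccne1 were the carbonyl reductase gene Cbr1 (0.210) and the mitotic genes Prc1 (0.212) and Aurka (0.225). Pdlim4 (0.132), B3gntl1 (0.141) and Dcbld1 (0.143) were nearest to Ccnd1, and Cda (0.181), Cstb (0.203) and the histone gene Hist1h4k (0.216) to Ccne2. For E2f1 they were Rab3d (0.203), Myl6b (0.250) and Adamtsl1 (0.282). Among the 10 genes, Ccne1 was nearest to Mybl1, at 0.542.

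In bulk liver, fewer cells of a type and less RNA per cell cannot be told apart. Summed markers of several other cell types were lower in the hairpin libraries as well. Their counts stand beside 12.6% of all genes called lower and 11.6% higher in shDnajb9, and 10.9% and 7.31% in shRictor. The endothelial counts, the T and NK count in shDnajb9, and the stellate, neutrophil and cholangiocyte counts in shRictor are near these shares. Summed T and NK cell markers were 57.7 to 92.6 CPM in the lacZ libraries and 35.4 to 49.8 in the hairpin libraries, with 2 of 10 called lower in shDnajb9 and 3 of 10 in shRictor. Kupffer cell markers summed to 1137 to 1373 CPM against 656 to 1151, with 2 of 7 tested called lower in each contrast. Their median log2 fold change was -0.79 in shDnajb9 and -0.54 in shRictor. Not all fell, as Clec4f was at 0.33 and 0.08 and Vsig4 at -0.82 and 0.48, none of them called. Cholangiocyte markers summed to 59.3 to 111 CPM against 28.3 to 58.8, with 2 of 4 called lower in shDnajb9 and 0 in shRictor. Stellate markers summed to 404 to 513.5 CPM against 227 to 298, with 3 of 6 and 1 of 6 called lower. Much of that sum was Col3a1, at 216 to 274 CPM against 65.7 to 95.4. The stellate list went both ways, with medians of -0.68 in shDnajb9 and -0.49 in shRictor. Reln was at 0.20 and 0.81 and Lrat at 0.82 and -0.04, none of them called. Neutrophil and granulocyte precursor markers summed to 3.98 to 25.1 CPM against 1.03 to 4.79, with 4 of 5 tested called lower in shDnajb9 and 1 of 5 in shRictor. Erythroid precursor markers went both ways, with 2 of 6 lower and 2 of 6 higher in each contrast, and endothelial markers, at 377 to 465 CPM against 407 to 512, had 0 called lower and 1 of 6, Clec4g, called higher in shDnajb9 (by 1.26). Without lacZ1 replicate 1 or shDnajb9 replicate 1, 0 markers of the T and NK, Kupffer, cholangiocyte, neutrophil and endothelial lists were called in shDnajb9, and 1 of the stellate list and 1 of the erythroid list were called lower. Without lacZ1 replicate 2, 0 Kupffer markers and 1 cholangiocyte marker were called. Without shDnajb9 replicate 2, 4 Kupffer and 2 endothelial markers were called lower there and 0 of the neutrophil list. In shRictor, without either shRictor library, 0 Kupffer and neutrophil markers and 1 of the T and NK list were called lower. Without lacZ2 replicate 2, 0 of the T and NK list, 1 Kupffer, 2 stellate and 2 neutrophil markers were called lower, and without lacZ2 replicate 1, 0 neutrophil markers. B and plasma cell markers were at 5.59 to 8.47 CPM in all 8 libraries with 0 of 4 called. No list had a marker at 0 in all libraries, and the part of these cell types in the falls of Ccne1, Mybl1, Cdk2 and the other genes was not tested.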

How the data were processed

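Each library had a table of unnormalised counts by gene symbol, which the authors deposited and had made with HTSeq on mm10 after cutadapt, per the submitters' processing notes. The aligner, tool versions, annotation and strand setting are not given in the sources used here. HTSeq's unassigned classes, 48.4% to 63.7% of all counts, were left out of library sizes. Another 27 entries had calendar dates for names and were handled like the other gene entries, in totals and, with enough counts, in the tests.

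The tests used edgeR 4.0.16 in R 4.3.3 (TMM, filterByExpr with a minimum count of 10, robust quasi-likelihood F test). A design of 4 group means over all 8 libraries left 4 residual degrees of freedom, and Benjamini-Hochberg adjustment ran over all 13767 genes tested. Log2 fold changes had a median standard error of 0.292 in shDnajb9 and 0.287 in shRictor. Groups of 2 allow no exact permutation test below 0.05. Within groups, libraries differed beyond counting error (chi-square per degree of freedom 18.2 to 52.0). The fitting code was tested on simulated data.

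Positions, exon lengths and overlaps are from GENCODE M21 (GRCm38), with 98.3% of symbols matched, and promoters from RefSeq. The genes and lists were chosen with earlier results of these data known. Named were the 10 genes, both targets, per list up to 3 genes with the smallest p in each contrast, and the 3 genes most like Ccnd1, Ccne1, Ccne2 and E2f1. The alternatives were RLE and total count scaling, no filter, a filter of 2 CPM in 2 libraries, a replicate block, DESeq2 1.42.0, limma-voom (limma 3.58.1), the 4 libraries compared, and leaving out libraries. Length and GC offsets were added after seeing the data.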

Additional observations from a re-analysis of the deposited data

How the results depend on the processing

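Of the 140 alternative values of the 10 genes in each hairpin contrast, 120 in shDnajb9 and 115 in shRictor kept their direction and their side of the threshold. Called falls lost their call in 9 and 10 values and never changed sign; every reversal was of a value that was not called. The cause of these changes was not tested, apart from fewer samples where libraries are left out, when a lone library is taken to vary as the others do. With 2 libraries per group, changes near the standard errors given could not be resolved.

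Total count scaling called 7 genes in shDnajb9 and 8 in shRictor. It turned Ccnd2 in shRictor to -0.402, and Ccnd3 and Rb1 between controls to 0.02 and 0.067. Ccne1 between controls was -0.007 with no filter. Ccnd2 in shRictor was -0.001 with the stricter filter and -0.005 with limma-voom. Over all genes, the difference between contrasts gave 395 calls with no filter, 43 with DESeq2 and 4 with length and GC offsets. The control comparison gave 13 calls with no filter, 1 with DESeq2 and 1 in the 4 libraries compared.

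Replicate numbers did not pair the libraries within either contrast (correlations of deviations -0.30 for lacZ1 with shDnajb9 and -0.03 for lacZ2 with shRictor, and from -0.33 to 0.32 over the other pairs of groups). The replicate block called 3 of the 10 genes in shDnajb9 and 4 in shRictor, with Rb1 and Cdk2 lost, and 3 genes of all in the difference. It gave Ccnd2 in shRictor as -0.005.

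Without shDnajb9 replicate 1 and lacZ2 replicate 1 together, 1675 genes were called in shDnajb9 and 0 in the difference. Ccnd3 in shRictor was then 0.022 and the difference of Ccne1 0.096. Length and GC offsets turned Ccnd2 and Ccnd3 in shDnajb9 to 0.025 and 0.40. They turned the differences of Ccnd2, Ccnd3 and Ccne1 to -0.022, -0.431 and 0.139, and Ccne1 between controls to -0.021.

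Leaving out 1 library at a time, calls among the 10 genes ran from 2 (without either lacZ1 library) to 4 in shDnajb9 and from 3 (without lacZ2 replicate 1 or either shRictor library) to 4 in shRictor. Over all genes they ran from 998 to 4142 in shDnajb9, from 1053 to 1996 in shRictor, from 0 to 19 in the difference and from 0 to 1 between controls. In shDnajb9, Ccnd2 ran from -0.482 to 0.095, Cdk4 from -0.272 to 0.163 and E2f1 from -0.784 to 0.361. In shRictor, Ccnd2 ran from -0.164 to 0.167 and Ccnd3 from -0.206 to 0.032. The difference between contrasts ran from -0.084 to 0.492 for Ccnd2, from -0.251 to 0.136 for Ccne1 and from -0.103 to 0.619 for Mybl1. Between controls, Ccnd2 ran from -0.07 to 0.507, Ccne1 from -0.069 to 0.066 and Cdk2 from -0.204 to 0.225.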
